A study of Mus musculus with 33 samples.

Results

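The collagen genes of mouse quadriceps muscle were taken as every gene of the count files with a symbol made of Col, a number, the letter a and a number, and with a mean of 0.5 CPM (gene counts scaled to library size) or more over 33 RNA-seq libraries. Of 44 such symbols among 23420 genes, 36 passed: 10 fibrillar collagens, 8 basement membrane collagens (6 of type IV, Col15a1 and Col18a1) and 18 others. The 8 under the floor were Col2a1, Col6a4, Col9a2, Col9a3, Col10a1, Col17a1, Col25a1 and Col26a1. Col9a1 lay just inside the floor with a mean of 0.555 CPM, and Col17a1 just outside with 0.421 CPM. All 36 also passed the filter on low counts used for the tests.

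All animals were C57BL6 males described as adult, either with intact Actn3 (WT) or without it (KO); Actn3 encodes alpha-actinin-3, which anchors actin filaments at the Z-disc of fast fibres. They received dexamethasone sodium phosphate, a glucocorticoid drug, in a single dose (20 mg/kg, intraperitoneal) or saline alone, and the quadriceps was collected after 3 h or after 24 h. Dexamethasone groups had 5 libraries each, for both genotypes and both times. WT saline had 3 libraries at 3 h and 4 at 24 h, and KO saline had 3 at either time. Whether libraries stand for separate animals is not stated in the labels, and p-values therefore measure the spread between libraries, which may be technical.

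Collagens are secreted triple helices of 3 chains. Fibrillar collagens assemble into the fibrils that carry tension in the connective tissue around muscle fibres, type IV collagen forms the sheet-like network of the basement membrane around each fibre and capillary, and type VI collagen forms beaded microfilaments that link the fibre surface to the matrix outside. Fibril-associated collagens (FACITs) bind to the surface of fibrils. In muscle most of these chains are made by fibroblasts, with type IV also made by endothelial cells and fibres, and glucocorticoids are known to lower collagen synthesis in connective tissues.

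Gene counts ran from 19663773 to 42756569 per library. Actn3 was at 6960 to 9700 CPM in the WT libraries and at 31.9 to 84.1 CPM in the KO libraries, which checks the genotype labels. Muscle fibre markers (8 of 8 detected) summed to between 144000 and 232000 CPM in every library. In 3 libraries the collagens stood low as a group. These libraries were picked for their collagen levels after the values were seen, so values without them are a description and no test. Leaving out the 2 that are dexamethasone libraries of 3 h raises the drug difference at 3 h by construction. Leaving out the saline library of 24 h lowers the drug difference at 24 h by construction. Both choices lower the drug difference at 24 h minus that at 3 h. KO saline 3 h replicate 3, lowest of its group for 27 of 36 members with 2060 CPM, was not left out with them. The members' summed level was 1340 CPM in WT dexamethasone 3 h replicate 5, against 2180 to 2740 CPM in the other 4 libraries of its group, and it was the lowest of its group for 29 of 36 members. KO dexamethasone 3 h replicate 4 had 1620 CPM against 2400 to 2610 CPM, and was lowest for 27. WT saline 24 h replicate 2 had 965 CPM against 1160 to 1700 CPM, and was lowest for 20. In bulk tissue, fewer cells of a type and less RNA per cell cannot be told apart.

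Compared per length (RPKM, reads per kilobase of exon, scaled to library size), the basement membrane chains Col4a1 and Col4a2 had the highest mean levels of all members, 39.5 and 33.7 RPKM. They were followed by the fibrillar Col3a1 with 26.2 RPKM, the type VI chain Col6a1 with 23.1, Col1a2 with 14.6, Col1a1 with 13.1, Col6a2 with 11.8 and Col6a3 with 9.24 RPKM. The library kit named in the labels does not mark strand, and exons of other genes cover at most 5.65% of a member's exon length (Col4a3). The remaining 28 members lay between 0.109 RPKM (Col9a1) and 7.51 RPKM (Col15a1). Summed levels of a class are therefore set by a few chains. Lengths are those of merged GENCODE exons, 6619 bp for Col4a2, 9816 bp for Col3a1 and 12426 bp for Col1a2. The annotation used for the deposited counts was not found in the labels. The order of members, the ratios of chains and the class shares per length depend on these lengths.

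Against saline of the same time, more collagens differed 24 h after dexamethasone than after 3 h, and most of those called were fibrillar or type VI chains and were lower. In the contrast that averages both genotypes at 24 h, 15 of 36 members were lower after dexamethasone than after saline (edgeR quasi-likelihood test, adjusted p under 0.05), beside 12.5% of all 13955 genes tested that were lower. One member, Col4a1, was higher, beside 12.7% of all genes. Of the 10 fibrillar collagens 8 fell and none rose, with a median log2 difference of -0.64. Of the 8 basement membrane collagens none fell and 1 rose, with a median of -0.07, and of the 18 others 7 fell and none rose, with a median of -0.39. The median over all genes tested was 0.00, and the difference between the classes was not tested. Without the 3 low libraries 9 fibrillar, 3 basement membrane and 9 other members were past the threshold downwards and Col4a1 upwards, with log2 differences of -1.33 for Col3a1, -0.89 for Col6a2, -0.74 for Col6a1, -0.75 for Col1a2 and 0.35 for Col4a1. The larger downward count follows in part from leaving out WT saline 24 h replicate 2, which was picked for its low collagens.

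**Figure D1:**
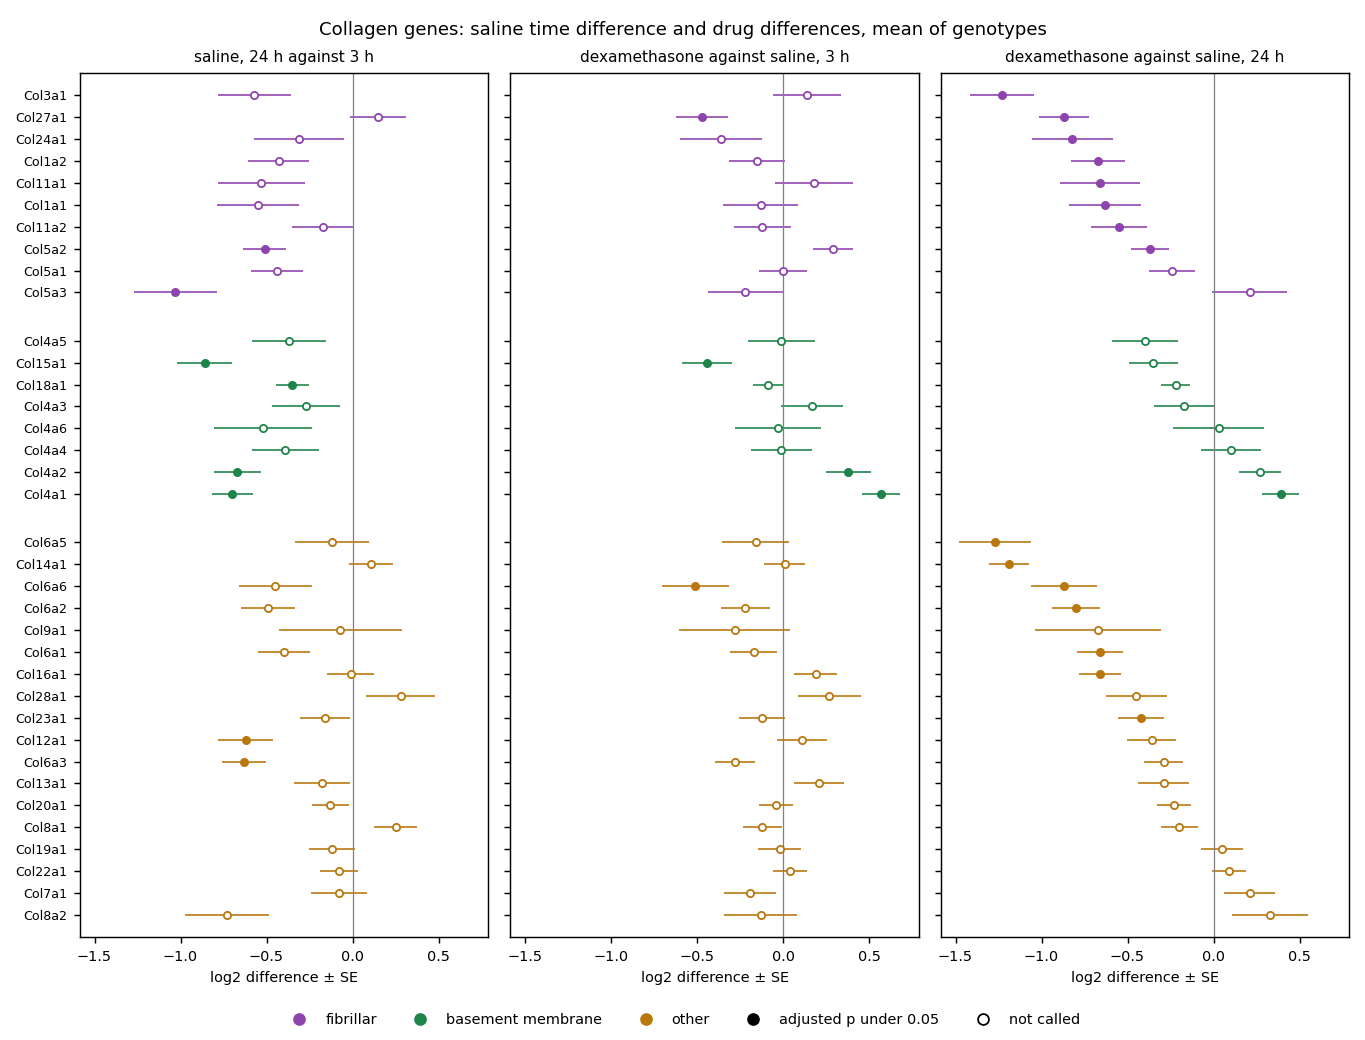
Log2 difference of each of the 36 collagen genes (points, with the SE as bars) between saline libraries at 24 h and 3 h, and between dexamethasone and saline libraries at 3 h and at 24 h, averaged over genotypes. At 24 h of dexamethasone 8 of 10 fibrillar members lie to the left of 0 as filled points, while Col4a1 lies to the right in both drug panels and to the left in the saline panel.

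Among the fibrillar chains, Col3a1, which forms the thin fibrils of type III collagen, had the largest difference. It lies on chromosome 1, 45311538 to 45349706 (plus strand, GRCm38). At 24 h its normalised level was 249, 108, 283 and 177 CPM in the 4 WT saline libraries and 70.6, 78.1, 77.5, 99.8 and 94.2 CPM in the 5 WT dexamethasone libraries. In KO it was 241, 306 and 249 CPM in saline and 137, 91.6, 87.9, 127 and 143 CPM after dexamethasone. Every dexamethasone library was below every saline library of its genotype. The mean log2 difference was -1.23 ± 0.187 (SE), which is 2.35-fold lower, with an edgeR adjusted p of 1.58e-05. In WT it was -1.28 ± 0.256 and in KO -1.18 ± 0.272, with adjusted p of 0.000999 and 0.00511.

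At 3 h Col3a1 was not called. The WT saline libraries held 317, 361 and 313 CPM of Col3a1 and the WT dexamethasone libraries 427, 444, 354, 400 and 155 CPM. In KO the values were 377, 376 and 323 CPM in saline and 362, 455, 438, 226 and 530 CPM after dexamethasone. The groups overlapped in both genotypes, and the lowest values were those of the low libraries, WT replicate 5 with 155 CPM and KO replicate 4 with 226 CPM. The log2 difference at 3 h was 0.14 ± 0.197 with an adjusted p of 0.641, and 0.32 without the 3 low libraries. The drug difference at 24 h minus that at 3 h was -1.37 ± 0.274 for Col3a1, with an edgeR adjusted p of 0.000356.

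The promoter window of Col3a1 is shown because it differs from those of the other collagens in base composition. Windows run from 250 bases before to 50 bases from the RefSeq start, 300 bases in all, and 33 windows of 30 members matched by symbol in the RefSeq table (GRCm38.p6). Col1a1, Col4a3, Col5a2, Col12a1, Col14a1 and Col22a1 have no entry there. The Col3a1 window is chr1:45311288-45311587 on the plus strand, and capitals mark the motif TATAAA, 117 bases before the start.
Col3a1: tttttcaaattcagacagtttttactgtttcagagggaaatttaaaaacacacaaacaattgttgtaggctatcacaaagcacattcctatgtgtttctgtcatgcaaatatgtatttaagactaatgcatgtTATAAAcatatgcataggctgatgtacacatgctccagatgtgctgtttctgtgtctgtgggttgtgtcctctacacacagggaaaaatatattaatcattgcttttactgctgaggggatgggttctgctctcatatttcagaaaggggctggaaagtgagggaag
Its GC content of 37.7% was the lowest of the 33 windows, against a median of 61.3% for the 8 fibrillar windows and of 52.7% for all 32851 windows of the table. TATAAA, searched on both strands, was in 3 of the 33 collagen windows (9.09%) and in 13.6% of all windows. The GC box letters GGGCGG were in 20 of the 33 (60.6%) and in 35.7% of all windows, and not in that of Col3a1. CCAAT was in 30.3% of the collagen windows and 37.4% of all windows. A match is a description of letters in the window.

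Type I collagen, the main tensile fibril of the tissue, is built from Col1a1 and Col1a2 chains. At 24 h Col1a2 was at 182, 111, 237 and 170 CPM in WT saline and at 94.4, 86.2, 99.4, 120 and 113 CPM in WT dexamethasone libraries, and at 164, 205 and 175 against 115, 97.6, 104, 117 and 179 CPM in KO. The groups overlapped through WT saline replicate 2 with 111 CPM and KO dexamethasone replicate 5 with 179 CPM. Its log2 difference was -0.67 ± 0.157 with an edgeR adjusted p of 0.0022. Col1a1 fell alongside it by 0.63 ± 0.209 on the log2 scale, with an adjusted p of 0.0276, a call that was lost without any 1 of 3 libraries, KO saline 24 h replicate 2, WT saline 24 h replicate 3 or KO dexamethasone 24 h replicate 4 (adjusted p up to 0.0893). Per length, the ratio of Col1a1 to Col1a2 had group medians between 0.778 and 0.96 in the 8 groups, and single libraries ran from 0.704 to 1.03.

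Type V chains nucleate the fibril and limit its width. Col5a2 was at 47.8, 33.4, 53.9 and 41.7 CPM in WT saline and 30.5, 31.8, 33.7, 36.6 and 31.2 CPM in WT dexamethasone libraries at 24 h, and at 48.8, 58.6 and 47.5 against 47.2, 37.3, 33.4, 45.4 and 46.5 CPM in KO. In KO no dexamethasone library reached the lowest saline library, while the WT groups overlapped through saline replicate 2 with 33.4 CPM. The log2 difference was -0.37 ± 0.11 with an adjusted p of 0.0137, which became 0.0554 without KO saline 24 h replicate 2. At 3 h the difference had the other sign, 0.29 ± 0.115 with an adjusted p of 0.0535, and 0.42 without the 3 low libraries. The change of the drug difference with time was -0.66 ± 0.16 for Col5a2, with an edgeR adjusted p of 0.00206. Col5a1 had -0.24 ± 0.135 and Col5a3 0.21 ± 0.217 at 24 h, with adjusted p of 0.194 and 0.506, and these 2 were the fibrillar members not called there.

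Of the less abundant fibrillar chains, Col27a1, a chain known from cartilage fibrils, was lower after dexamethasone at both times. At 24 h it was at 4.53, 5.38, 7.43 and 5.15 CPM in WT saline and 3.01, 3.13, 4.01, 3.7 and 2.7 CPM in WT dexamethasone libraries. In KO it was at 4.31, 6.4 and 5.6 CPM against 2.4, 3.76, 2.84, 2.07 and 2.78 CPM. No dexamethasone library reached a saline library of either genotype. The log2 difference was -0.87 ± 0.147 at 24 h (edgeR adjusted p = 3.9e-05) and -0.47 ± 0.151 at 3 h (adjusted p = 0.018), and leaving out WT saline 3 h replicate 3 raised the adjusted p at 3 h to 0.0748. Col24a1 fell by 0.82 ± 0.234, Col11a1 by 0.66 ± 0.235 and Col11a2 by 0.55 ± 0.164 on the log2 scale at 24 h, with adjusted p of 0.0109, 0.038 and 0.0135. The call of Col24a1 was lost without KO saline 24 h replicate 2 (log2 difference -0.57, adjusted p = 0.0819), and that of Col11a2 without KO saline 24 h replicate 3 (adjusted p = 0.0565).

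**Figure D2:**
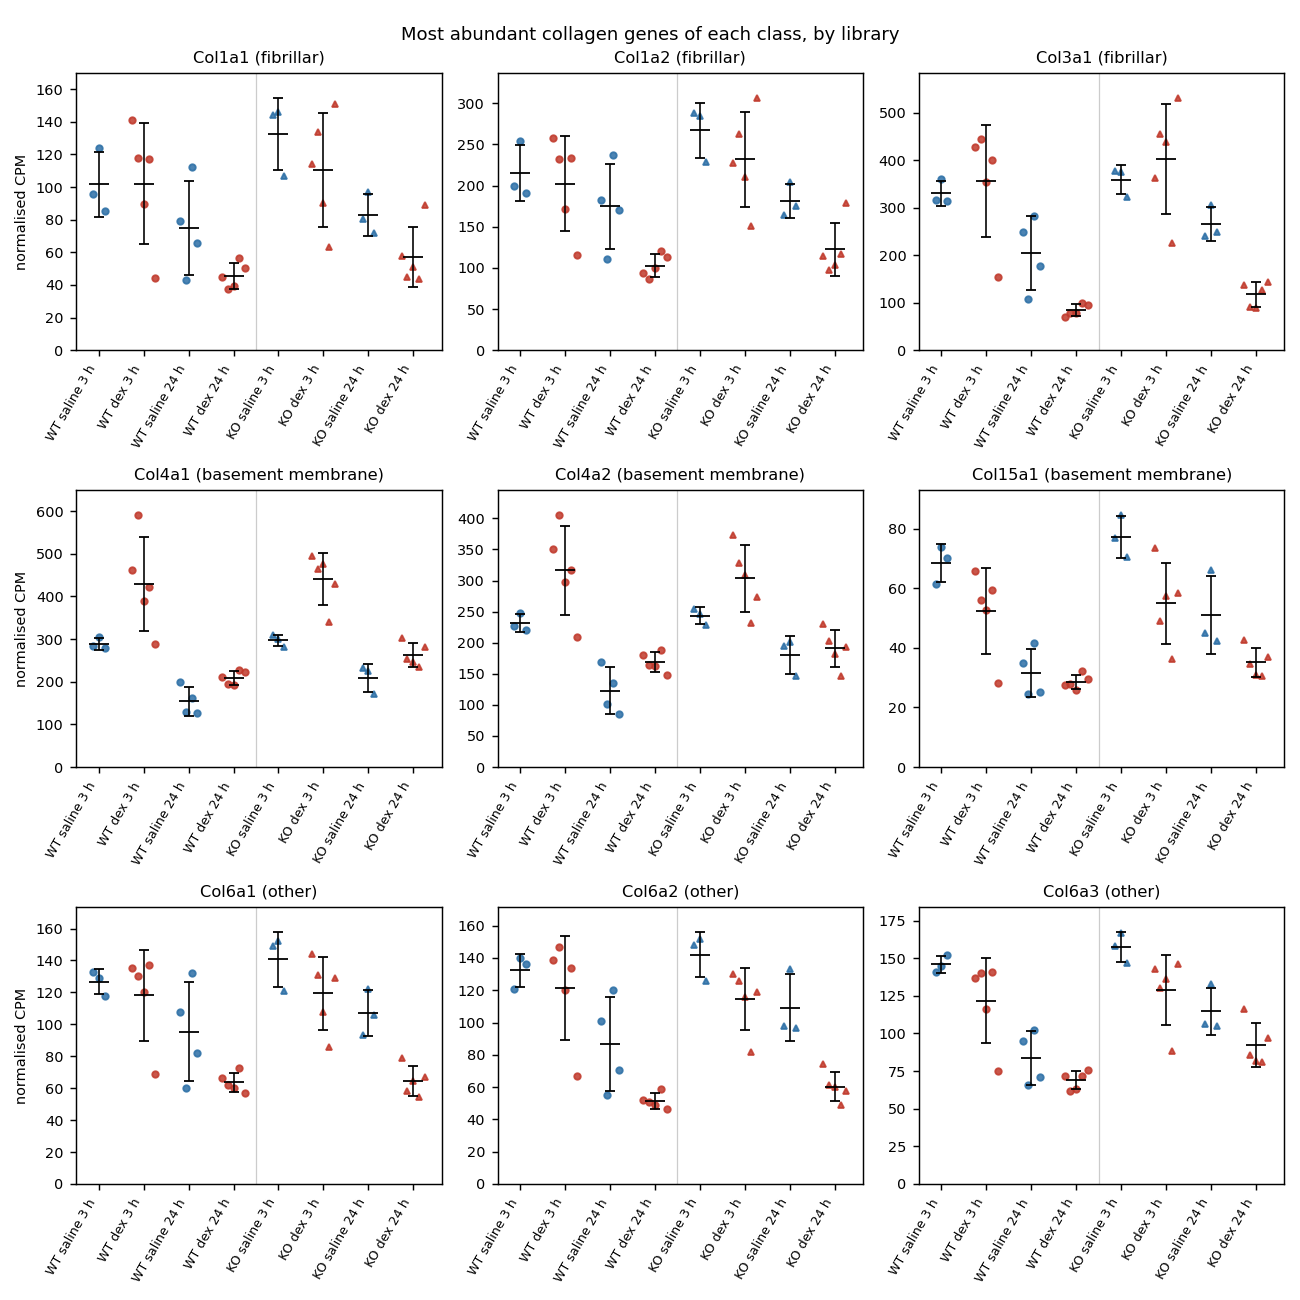
Normalised CPM of the 3 members of each class with the highest mean RPKM, in each library (circles WT, triangles KO, blue saline, red dexamethasone), with group mean and SD as bars. Col3a1 is lowest in both dexamethasone groups at 24 h, and Col4a1 and Col4a2 are highest in the dexamethasone groups at 3 h.

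The most abundant basement membrane chains, Col4a1 and Col4a2, were higher after dexamethasone at 3 h. These chains form the common type IV heterotrimer. Col4a1 was at 283, 305 and 279 CPM in WT saline and at 462, 590, 388, 422 and 288 CPM in WT dexamethasone libraries at 3 h. In KO it was at 309, 299 and 282 CPM in saline and 495, 465, 475, 340 and 429 CPM after dexamethasone. All dexamethasone libraries exceeded the saline libraries but WT replicate 5, one of the low libraries, which lay within the saline range. The log2 difference was 0.57 ± 0.112, or 1.49-fold, with an edgeR adjusted p of 0.000138. It was 0.57 ± 0.158 in each genotype, with adjusted p of 0.00969 in WT and 0.00936 in KO.

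Col4a2 rose with it by 0.38 ± 0.129 on the log2 scale at 3 h, with an adjusted p of 0.0237. It was at 227, 248 and 220 CPM in WT saline and 351, 405, 298, 317 and 210 CPM in WT dexamethasone libraries, and at 255, 247 and 229 against 373, 329, 309, 232 and 274 CPM in KO. The groups overlapped through WT replicate 5 and KO replicate 4. The call was lost without KO saline 3 h replicate 3 or WT saline 3 h replicate 3, with an adjusted p of up to 0.0562, and without the 3 low libraries the difference was 0.49. In all, 2 of 36 members were higher in the mean contrast at 3 h, beside 14.7% of all genes tested, and 3 were lower, beside 14.2%. Both counts are smaller shares of the 36 members than the background. The count of 5 called members was 3 without KO saline 3 h replicate 2, KO saline 3 h replicate 3 or WT saline 3 h replicate 2, and 2 without WT saline 3 h replicate 3. Without the 3 low libraries 5 were past the threshold upwards (Col3a1, Col5a2, Col16a1, Col4a1 and Col4a2) and 1 downwards (Col15a1), which follows in part from how those libraries were picked. The log2 differences at 3 h were then 0.68 for Col4a1, -0.29 for Col15a1, -0.36 for Col27a1 and -0.39 for Col6a6, of which Col27a1 and Col6a6 were no longer called.

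Col4a1 and Col4a2 start head to head on chromosome 8 and overlap by 22 bp in the annotation, with Col4a1 at 11198423 to 11312826 on the minus strand and Col4a2 at 11312805 to 11449287 on the plus strand (GRCm38). Their RefSeq promoter windows are shown because they share 78 bases, chr8:11312777-11312854, in capitals. The Col4a1 window is chr8:11312777-11313076 on the minus strand and the Col4a2 window chr8:11312555-11312854 on the plus strand, both of GRCm38.p6.
Col4a1: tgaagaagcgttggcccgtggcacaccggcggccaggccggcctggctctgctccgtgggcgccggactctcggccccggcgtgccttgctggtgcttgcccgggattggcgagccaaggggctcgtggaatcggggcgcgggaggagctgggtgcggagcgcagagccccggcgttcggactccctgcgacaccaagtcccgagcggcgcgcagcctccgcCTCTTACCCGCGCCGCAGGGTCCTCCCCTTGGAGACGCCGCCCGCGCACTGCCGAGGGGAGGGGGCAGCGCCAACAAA
Col4a2: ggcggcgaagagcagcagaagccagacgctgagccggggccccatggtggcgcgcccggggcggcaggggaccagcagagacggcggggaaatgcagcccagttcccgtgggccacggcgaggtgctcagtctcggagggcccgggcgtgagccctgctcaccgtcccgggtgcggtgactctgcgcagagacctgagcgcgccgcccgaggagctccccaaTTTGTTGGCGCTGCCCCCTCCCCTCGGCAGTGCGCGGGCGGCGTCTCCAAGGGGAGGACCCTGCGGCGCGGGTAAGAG
The GC content was 74% for Col4a1 and 73.7% for Col4a2, against a median of 61.5% for the 8 basement membrane windows. Both windows held GGGCGG and CCAAT on one strand or the other, and neither held TATAAA. The half-site letters of the glucocorticoid response element, AGAACA, were in 2 of the 33 collagen windows (6.06%), those of Col20a1 and of 1 of the Col9a1 windows, and in 19% of all windows. The full palindromic element was in none of the 33 and in 0.00913% of all windows. Per length, the ratio of Col4a1 to Col4a2 had a group median between 1.04 and 1.3, and it was 0.994 to 1.41 over all libraries.

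At 24 h Col4a1 was still higher in dexamethasone than in saline libraries of the same time. It was at 199, 129, 161 and 127 CPM in WT saline and 211, 194, 192, 227 and 223 CPM in WT dexamethasone libraries, and at 231, 225 and 171 against 302, 253, 246, 234 and 281 CPM in KO. In KO no library overlapped, and in WT only saline replicate 1 with 199 CPM lay among the dexamethasone libraries. The log2 difference was 0.39 ± 0.107 with an edgeR adjusted p of 0.00717, while Col4a2 had 0.27 ± 0.123 with an adjusted p of 0.109. These values rest on the saline libraries of 24 h, whose Col4a1 level was itself lower than that of saline at 3 h. Against the saline libraries of both times the same dexamethasone libraries differed by 0.03 for Col4a1 (adjusted p = 0.797), so the call depends on the control taken.

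The other type IV chains, Col4a3 to Col4a6, build the networks of specialised basement membranes, and were less abundant, with 0.138 to 1.08 RPKM on average. None was called at either time in the mean drug contrasts, where their log2 differences ran from -0.03 to 0.17 at 3 h and from -0.40 to 0.10 at 24 h. Of the multiplexins, basement membrane proteoglycan collagens, Col15a1 went the other way from Col4a1 against saline of the same time. It was at 61.5, 73.9 and 70.3 CPM in WT saline and 65.9, 56.1, 52.6, 59.5 and 28.1 CPM in WT dexamethasone libraries at 3 h, and at 77, 84.5 and 70.4 against 73.4, 49, 57.5, 36.4 and 58.5 CPM in KO. The groups overlapped in both genotypes. In the fit the log2 difference was -0.44 ± 0.145 (edgeR adjusted p = 0.022) at 3 h and -0.35 ± 0.142 (adjusted p = 0.0733) at 24 h. The call at 3 h was lost without KO saline 3 h replicate 2 or WT saline 3 h replicate 2 (adjusted p up to 0.0637). In WT or KO alone Col15a1 was not called at 3 h (edgeR adjusted p of 0.237 and 0.0981). The authors' deposited tables gave it 0.13 in WT and -0.21 in KO at 3 h, without a call. Their WT values at 3 h lay at most 0.1 from a refit against saline of both times, so the sign of Col15a1 in WT depends on the control taken. Col18a1, the source of endostatin, had -0.09 ± 0.0872 at 3 h and -0.22 ± 0.0852 at 24 h, with adjusted p of 0.448 and 0.0526.

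Type VI collagen fell at 24 h in 4 of its 5 measured chains, with a median log2 difference of -0.80. Col6a1 and Col6a2, the short chains of the common heterotrimer, had -0.66 ± 0.132 and -0.80 ± 0.138, with edgeR adjusted p of 0.00042 and 6e-05. Col6a2 was at 101, 55.4, 120 and 70.8 CPM in WT saline and 51.9, 51, 48.7, 58.9 and 46.4 CPM in WT dexamethasone libraries, and at 97.8, 133 and 96.5 against 74.2, 61.2, 59.9, 48.8 and 57.4 CPM in KO. The KO groups did not overlap, and the WT groups overlapped only through saline replicate 2. Col6a3, the long chain of the same trimer, had -0.29 ± 0.113 with an adjusted p of 0.0537, and -0.34 without the 3 low libraries. Col6a6 and Col6a5, long chains that can take its place, fell by 0.87 ± 0.192 and 1.27 ± 0.207 on the log2 scale, with adjusted p of 0.00119 and 2.3e-05. Col6a5 was at 1.08, 1.26, 1.07 and 1.41 CPM in WT saline and 0.421, 0.509, 0.358, 0.94 and 0.407 CPM in WT dexamethasone libraries, and at 1.12, 1.62 and 2.12 against 0.45, 0.587, 0.469, 0.894 and 0.838 CPM in KO, with no overlap. At 3 h Col6a6 was also lower, by -0.51 ± 0.194 with an adjusted p of 0.0464, a call lost in 17 of the 33 fits that each leave out 1 library (adjusted p up to 0.133).

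Col14a1, a FACIT that binds and spaces fibrils in tendon and muscle connective tissue, had the smallest p of all members at 24 h. It was at 17, 16.8, 25.7 and 17.8 CPM in WT saline and 8.27, 8.81, 8.06, 11.6 and 11.5 CPM in WT dexamethasone libraries. In KO it was at 24.7, 19.9 and 24 CPM in saline and 8.7, 7.39, 9.22, 8.37 and 10.7 CPM after dexamethasone. All 10 dexamethasone libraries were below all 7 saline libraries. On the log2 scale the difference was -1.19 ± 0.115, or 2.27-fold lower, with an edgeR adjusted p of 4e-09. Without the 3 low libraries it was -1.21. At 3 h it was 0.01 ± 0.118, and the saline libraries of 24 h and 3 h differed by 0.11 ± 0.128, with adjusted p of 0.957 and 0.703.

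The FACIT Col16a1 showed the same order of values at 24 h. It was at 7.08, 7.32, 10.3 and 6.83 CPM in WT saline, 5.08, 3.96, 5.38, 5.76 and 5.02 CPM in WT dexamethasone, 8.37, 8.59 and 6.64 CPM in KO saline and 5.13, 4.63, 4.6, 4.28 and 5.95 CPM in KO dexamethasone libraries. Groups did not overlap, and the log2 difference was -0.66 ± 0.123 with an edgeR adjusted p of 0.000127. The transmembrane collagen Col23a1 fell by 0.42 ± 0.133 on the log2 scale, with an adjusted p of 0.0199. The 11 other members of the third class that were not called at 24 h were the FACITs Col12a1 (-0.36 ± 0.143), Col9a1, Col19a1, Col20a1 and Col22a1, the chain Col7a1 of anchoring fibrils, the network-forming Col8a1 and Col8a2, the transmembrane Col13a1, Col28a1 and Col6a3. Their log2 differences ran from -0.67 (Col9a1) to 0.33 (Col8a2).

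**Figure D3:**
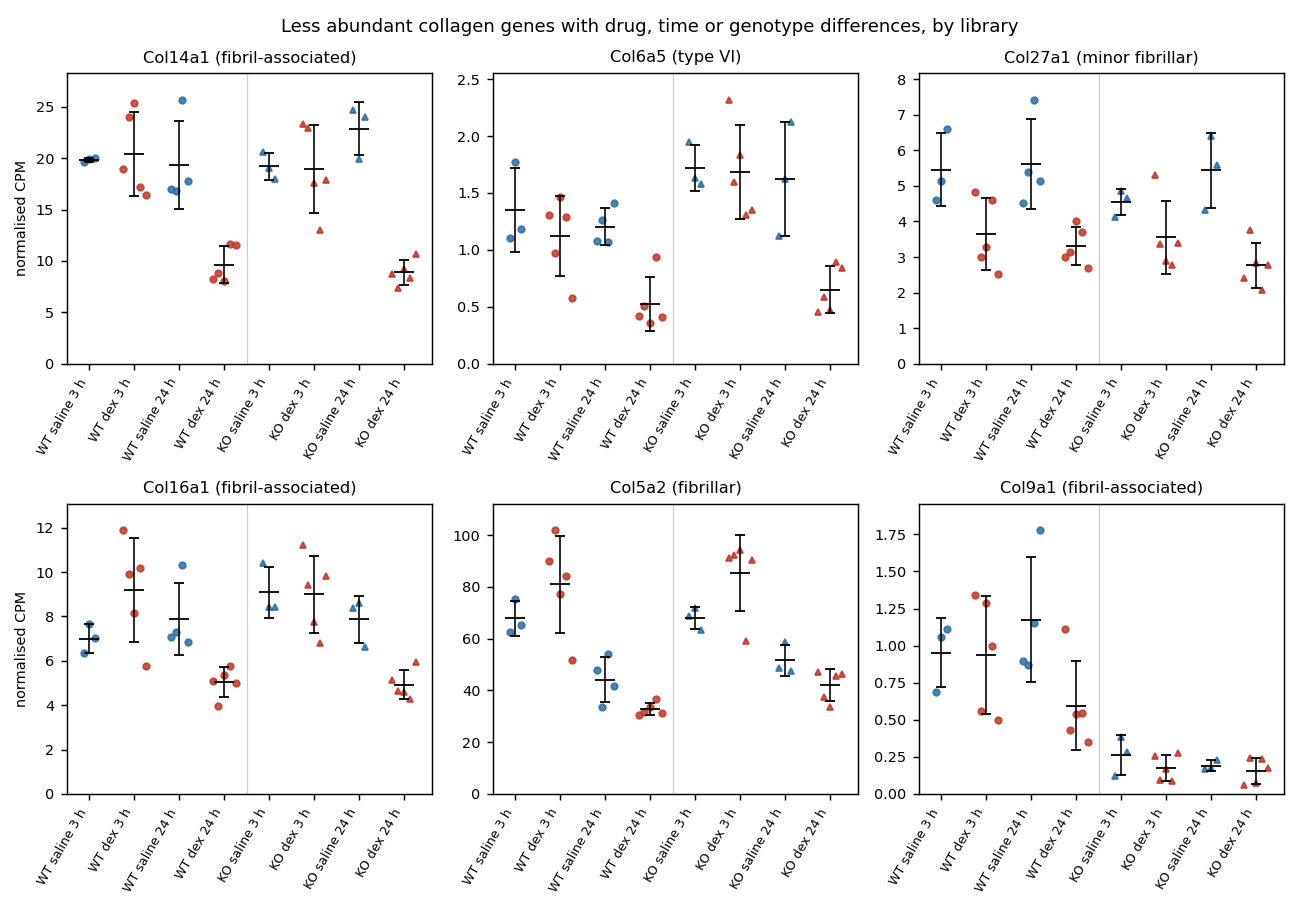
Normalised CPM of 6 less abundant collagen genes in each library (circles WT, triangles KO, blue saline, red dexamethasone), with group mean and SD as bars. Col14a1, Col6a5, Col27a1 and Col16a1 are lower in the dexamethasone groups at 24 h than in the saline groups of that time, and Col9a1 is lower in the KO groups.

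Within each genotype at 24 h the counts were smaller. In WT 8 members were lower after dexamethasone, beside 6.92% of all genes, and 2 were higher, Col4a1 and Col19a1, beside 6.75%. In KO 10 were lower, beside 4.97% of all genes, and none was higher, beside 5.77%. Without WT saline 24 h replicate 3 the WT count of called members fell from 10 to 3, and without KO saline 24 h replicate 2 the KO count fell from 10 to 4. At 3 h Col4a1 was the 1 member called in either genotype, and it was higher, beside 6.76% of all genes higher and 8.09% lower in WT, and 8.91% higher and 8.48% lower in KO. Without WT dexamethasone 3 h replicate 5 the WT count rose to 4, without WT saline 3 h replicate 3 it was 0, and it was 2 without KO dexamethasone 3 h replicate 1, WT dexamethasone 3 h replicate 1 or WT dexamethasone 3 h replicate 4. The KO count was 0 without KO saline 3 h replicate 3, and 2 without KO dexamethasone 3 h replicate 1 or WT dexamethasone 3 h replicate 5.

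The drug differences did not differ between genotypes past the threshold. In the genotype by treatment interaction 0 of 36 members were called at 3 h, beside 0% of all genes, and 0 at 24 h, beside 0.00717%. At an unadjusted p under 0.05, 0 members at 3 h and 2 at 24 h passed, and DESeq2 and limma-voom called 0 at both times. The 2 were Col19a1, with an interaction of -1.01 ± 0.24, and Col20a1, with -0.54 ± 0.195, and edgeR adjusted p of 0.432 and 0.788. Col19a1 was at 2.98, 2.26, 2.61 and 2.42 CPM in WT saline and 4.24, 3.96, 4.55, 4.09 and 2.12 CPM in WT dexamethasone libraries at 24 h, and at 4.6, 4.56 and 4.75 against 3.66, 3.42, 2.93, 3.15 and 3.84 CPM in KO. All but 1 WT dexamethasone library were above WT saline, and all KO dexamethasone libraries were below KO saline. Without the exception, WT dexamethasone 24 h replicate 5, the interaction of Col19a1 was -1.16 with an edgeR adjusted p of 0.0113. That library is singled out for its value, so the refit is a description and no test. Of the fits that each leave out 1 library, it was the only 1 that called a member. At 3 h the smallest p belonged to Col13a1, with an interaction of -0.49 ± 0.292 (adjusted p = 0.999). A p above the threshold does not show that the genotypes respond alike.

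The saline libraries themselves differed between 24 h and 3 h, and the collagens were prominent among the genes called. In the mean of genotypes 8 of 36 members were lower at 24 h, beside 1.35% of all genes tested, and none was higher, beside 1.02%. The estimate was negative for 32 of 36 members, with a median of -0.38, while the median of all genes was 0.00. By class, 4 of 8 basement membrane members fell (median -0.45), 2 of 10 fibrillar members (median -0.47) and 2 of 18 others (median -0.13). Time after injection and time of day cannot be told apart from the labels used here. Saline libraries number 3 or 4 per group, and the count was 4 without any 1 of KO saline 3 h replicate 2, WT saline 3 h replicate 2, KO saline 24 h replicate 1 or KO saline 24 h replicate 3, and 5 without KO saline 3 h replicate 1.

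The basement membrane genes Col4a1, Col15a1 and Col4a2 were among those with the smallest p. From the values above, every saline library held more Col4a1 at 3 h (279 to 309 CPM) than at 24 h (127 to 231 CPM). The fitted log2 difference was -0.70 ± 0.119 with an edgeR adjusted p of 0.00113, and Col4a2 had -0.67 ± 0.138 with an adjusted p of 0.00742. Col15a1 at 24 h was at 34.9, 24.5, 41.5 and 25.3 CPM in WT and 45, 66.2 and 42.3 CPM in KO saline libraries, all below the 3 h libraries of their genotype. Its difference was -0.86 ± 0.16 with an adjusted p of 0.0043. Col18a1 had -0.35 ± 0.0953 with an adjusted p of 0.0454. Without the 3 low libraries 3 basement membrane, 4 fibrillar and 3 other members were past the threshold downwards.

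Outside the basement membrane, Col6a3 was at 141, 145 and 152 CPM in WT and 158, 167 and 147 CPM in KO saline libraries at 3 h, and at 95.3, 65.5, 102 and 71.2 CPM and 106, 133 and 105 CPM at 24 h. No library of 24 h reached one of 3 h, and the log2 difference was -0.63 ± 0.128 with an edgeR adjusted p of 0.00657. The type V chains Col5a3 and Col5a2 had -1.03 ± 0.242 and -0.51 ± 0.124, with adjusted p of 0.0224 and 0.0244, and the FACIT Col12a1 had -0.62 ± 0.16 with an adjusted p of 0.0331. The calls of Col5a2 and Col12a1 were lost in 5 and 8 of the 33 fits that each leave out 1 library. Col3a1 had -0.57 ± 0.212 with an adjusted p of 0.152, and -0.46 without the 3 low libraries. In WT alone 4 members fell, Col4a1, Col15a1, Col4a2 and Col6a3, beside 0.408% of all genes, a count that was 1 without WT saline 3 h replicate 2, WT saline 3 h replicate 3, WT saline 24 h replicate 2 or WT saline 24 h replicate 4, and 2 without WT saline 3 h replicate 1. In KO alone 0 were called by edgeR, DESeq2 or limma-voom, beside 0.0287% of all genes in either direction, and 11 had an unadjusted p under 0.05.

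The saline time difference and the drug difference at 24 h share the saline libraries of 24 h, so their values are given side by side. Of the 8 members lower in saline with time, Col5a2 was also lower after 24 h of dexamethasone against the saline of that time. In that drug contrast 12.5% of all genes were lower. The other 7 were not lower there: Col4a1, which was called higher, and Col4a2, Col15a1, Col18a1, Col5a3, Col6a3 and Col12a1, which were not called. Of the 15 members lower with the drug at 24 h, 14 were not called in saline with time, where only 1.35% of all genes were lower. Not called does not mean unchanged, as the saline estimate of all 14 but Col14a1 and Col27a1 was negative. For Col14a1 the drug difference at 24 h was -1.19 and the saline time difference 0.11, for Col27a1 they were -0.87 and 0.15, and for Col16a1 -0.66 and -0.01. For Col5a3 they were 0.21 and -1.03, and for Col4a1 0.39 and -0.70. For Col3a1 both were negative, -1.23 and -0.57, as for Col6a2 with -0.80 and -0.49.

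Set against the saline libraries of 3 h, muscle after 24 h of dexamethasone was lower in 26 of 36 members, beside 14.8% of all genes lower, and higher in none, beside 16.4%. All 10 fibrillar members, 5 of 8 basement membrane members and 11 of 18 others were lower, with median log2 differences of -0.98, -0.46 and -0.63. Col3a1 differed most, by -1.79 ± 0.192 or 3.47-fold (edgeR adjusted p = 9e-08), with 70.6 to 143 CPM against 313 to 377 CPM. Col4a1 was also lower in this contrast, by -0.32 ± 0.109 with an adjusted p of 0.0247. Its sign at 24 h of dexamethasone was thus positive against saline of 24 h and negative against saline of 3 h.

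Between 3 h and 24 h of dexamethasone 27 members fell, beside 21.2% of all genes, and 1 rose, Col7a1 (0.33 ± 0.131, edgeR adjusted p = 0.0432), beside 22.9%. The largest fall was that of Col3a1 with -1.93 ± 0.176. The direct test of whether the drug difference changed with time called 7 members lower, beside 12.5% of all genes, and none higher, beside 13.7%. In either direction 26.2% of all genes were called, a larger share than among the members. The 7 were Col14a1 (-1.20 ± 0.166), Col16a1 (-0.85 ± 0.176), Col3a1, Col5a2, Col6a5 (-1.12 ± 0.286), Col6a2 (-0.59 ± 0.201) and Col28a1 (-0.73 ± 0.257). They are 2 fibrillar members and 5 others, and 0 of 8 basement membrane members were called, none of which had an unadjusted p under 0.05. The count was 13 without the 3 low libraries and 11 without WT dexamethasone 3 h replicate 5 alone. Both rises follow in part from leaving out libraries picked for low collagens.

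Summed per length, the classes took different shares of the collagen RNA after the drug. Basement membrane chains made 34.6 ± 0.341% (SD, n = 3) of the summed collagen RPKM in WT saline and 41.8 ± 3.35% (n = 5) in WT dexamethasone libraries at 3 h, and 29.2 ± 3.98% (n = 4) and 43.4 ± 0.709% (n = 5) at 24 h. In KO the shares were 33.2 ± 1.35% (n = 3) and 40.8 ± 3.26% (n = 5) at 3 h and 32.4 ± 3.29% (n = 3) and 44.3 ± 2.19% (n = 5) at 24 h. In all 4 comparisons every dexamethasone library had a higher share than every saline library. Fibrillar chains made 37.2 ± 3.69% and 35.7 ± 1.44% in saline at 24 h, in WT and KO, and 27.5 ± 1.11% and 28.3 ± 3.22% after dexamethasone. Without the 3 low libraries the basement membrane share was 40.8 ± 2.68% (n = 4) in WT and 40 ± 3.08% (n = 4) in KO dexamethasone libraries at 3 h, and 27.8 ± 3.46% (n = 3) in WT saline at 24 h. A share rises when other chains fall, so these values add nothing on the direction of a single class.

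**Figure D4:**
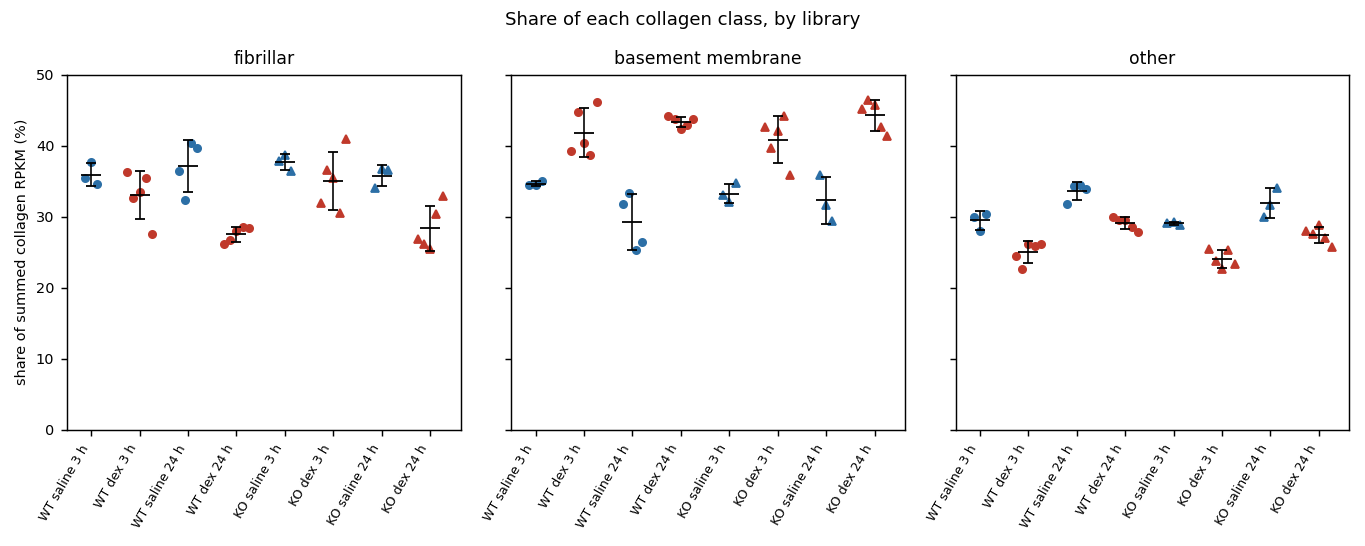
Share of each collagen class in the summed RPKM of the 36 members, in percent, for each library (circles WT, triangles KO, blue saline, red dexamethasone), with group mean and SD as bars. The basement membrane share is between 35.8% and 46.4% in the dexamethasone libraries and between 25.3% and 35.9% in the saline libraries.

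As summed levels, fibrillar chains were at 93.9 RPKM in WT saline at 3 h, 63.3 RPKM in WT saline at 24 h and 39.4 RPKM in WT dexamethasone libraries at 24 h (means). In KO they were at 108, 75.5 and 47.5 RPKM. Basement membrane chains were at 90.4, 48.7 and 61.9 RPKM in WT and 94.8, 68.3 and 73.9 RPKM in KO in the same order. Without WT saline 24 h replicate 2 the WT saline means at 24 h were 71.4 RPKM for fibrillar and 51.4 RPKM for basement membrane chains. The mean fibrillar sum thus stepped down over these 3 groups in both genotypes, whereas the mean basement membrane sum was lowest in saline at 24 h. Basement membrane sums overlapped at 24 h, with 37.8 to 62.8 RPKM in saline against 58.3 to 68.9 RPKM after dexamethasone in WT. In KO they were 56 to 77.2 against 62.7 to 86.4 RPKM. Fibrillar sums at 24 h overlapped in WT, with 39 to 85.5 against 35.8 to 45.9 RPKM, and not in KO, with 67.9 to 89.2 against 38.1 to 62 RPKM.

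Genotype differences were small for most members. Averaged over the 4 combinations of treatment and time, 7 members were higher in KO, beside 9.84% of all genes, and 2 were lower, beside 10.8%, 1 of which is Col9a1, whose place among the members depends on this difference. The 7 were Col6a3 (0.27 ± 0.082), Col19a1 (0.28 ± 0.0861), Col24a1 (0.52 ± 0.168), Col15a1 (0.31 ± 0.102), Col6a5 (0.41 ± 0.143), Col8a1 (0.22 ± 0.0783) and Col4a1 (0.21 ± 0.076), with edgeR adjusted p from 0.0183 to 0.0463. The count of 9 called members was 4 without WT saline 3 h replicate 1 or KO saline 24 h replicate 2, and 5 without KO saline 3 h replicate 1 or KO saline 3 h replicate 2. The estimate was positive for 30 of 36 members.

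One member stood out by size. Col9a1, a chain of the cartilage FACIT type IX, was at 0.688, 1.06 and 1.11 CPM in WT saline at 3 h and 0.899, 0.87, 1.15 and 1.78 CPM at 24 h, and at 0.12, 0.384 and 0.284 CPM and 0.166, 0.175 and 0.232 CPM in the KO saline groups. After dexamethasone the WT libraries ran from 0.349 to 1.34 CPM and the KO libraries from 0.06 to 0.276 CPM. The genotypes overlapped only where the lowest WT dexamethasone library at 24 h (0.349 CPM) lay below the highest KO saline library (0.384 CPM). Its log2 difference was -2.19 ± 0.228 (KO minus WT), given as a description. Col9a1 passed the floor of 0.5 CPM through the WT groups alone, whose means were 0.595 to 1.17 CPM against 0.157 to 0.262 CPM in the KO groups, so that its membership depends on the difference between genotypes. It was the least abundant member and Col9a2 and Col9a3, the other chains of its trimer, were under the floor with 0.284 and 0.137 CPM.  The other member lower in KO was the FACIT Col20a1, by -0.21 ± 0.0695 with an adjusted p of 0.0281.

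Genes whose products modify and process collagen were measured from lists of the pathway, to be read against 14.7% of all genes higher and 14.2% lower at 3 h and 12.7% and 12.5% at 24 h. Of 17 tested hydroxylation and folding genes 3 rose and 1 fell at 3 h, led by the lysyl hydroxylase Plod2 (1.88 ± 0.168, edgeR adjusted p = 9.86e-11), and of 13 tested processing and cross-linking genes 4 rose and 1 fell, with Adamts14, a procollagen N-proteinase (1.93 ± 0.167), Tgm2, a transglutaminase (1.48 ± 0.0841), and the lysyl oxidase Lox (1.04 ± 0.123). At 24 h 3 of these 13 rose and 5 fell, among them Pcolce, the enhancer of C-propeptide removal (-0.60 ± 0.0933), and the propeptide proteinases Bmp1 (-0.52 ± 0.0869) and Adamts2 (-0.50 ± 0.0862). Of 14 tested breakdown genes and inhibitors 1 rose and 5 fell at 3 h and 1 rose and 8 fell at 24 h, with the collagenolytic protease Ctsk at -0.97 ± 0.139 at 24 h. Of 8 tested collagen receptors 1 rose and 4 fell at 3 h, among them Ddr2 (-0.47 ± 0.0705), and 2 rose and 1 fell at 24 h, with the inhibitory leukocyte receptor Lair1 at -2.09 ± 0.236.

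The partners of the 2 matrix types were also measured, against the same background of 14.7% higher and 14.2% lower at 3 h and 12.7% and 12.5% at 24 h. Of 13 proteins that bind fibrils, 2 fell at 3 h and 8 at 24 h and none rose, with fibronectin, Fn1, 2-fold lower (adjusted p = 6.11e-10), lumican, Lum, at -0.93 ± 0.115 and biglycan, Bgn, at -0.67 ± 0.116 at 24 h. Of 11 laminins, nidogens and other basement membrane partners, 3 fell at 3 h and 2 at 24 h and none rose, with nidogen-2, Nid2, at -0.64 ± 0.0989 at 24 h. Of 16 TGF-beta pathway genes, 3 rose and 4 fell at 3 h, with Ctgf at 1.57 ± 0.185, and 3 rose and 5 fell at 24 h. In saline with time 0 or 1 gene of each of these 7 lists rose and 0 or 1 fell.

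Markers of cell types were counted beside the same shares of all genes, 14.7% higher and 14.2% lower at 3 h and 12.7% and 12.5% at 24 h. Of 11 fibroblast markers, 2 rose and 4 fell at 3 h and 1 rose and 3 fell at 24 h, and their summed level was 1570 to 1810 CPM in WT saline and 1680 to 1990 CPM in WT dexamethasone libraries at 24 h, and 1310 to 1500 and 1620 to 1850 CPM in KO. Gsn, with a mean of 1280 CPM, made most of that sum and rose by 0.31 ± 0.0663 at 24 h. Without Gsn the other 10 markers summed to 382 to 424 CPM in WT saline and 313 to 352 CPM in WT dexamethasone libraries at 24 h, with no overlap, and to 353 to 399 and 310 to 360 CPM in KO, so the direction of the sum turned with that gene. The part of fibroblasts in the collagen differences was not tested. Of 9 tendon markers, of which Fmod, Thbs4 and Comp are also in the list of fibril-binding proteins, 1 fell at 3 h and 3 at 24 h, with sums of 321 to 572 against 273 to 404 CPM in WT and 318 to 367 against 211 to 287 CPM in KO at 24 h. Of 10 endothelial markers 3 rose and 6 fell at 3 h, with sums of 471 to 576 against 369 to 445 CPM in WT and 467 to 570 against 360 to 444 CPM in KO. Endothelial calls went both ways at 3 h, so the sum does not measure the amount of endothelium. Of 9 macrophage markers 5 rose at 3 h and 4 fell at 24 h. The part of tendon, endothelium and macrophages in the collagen differences was not tested.

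In saline with time none of the 11 fibroblast, 9 tendon, 9 macrophage or 8 Schwann cell markers was called by edgeR, with list medians of 0.06, -0.37, 0.41 and -0.22, beside 1 endothelial marker, Kdr, and 1 smooth muscle marker, Acta2, both lower. Tendon sums ran from 367 to 544 CPM at 3 h and from 321 to 572 CPM at 24 h in WT saline, and from 416 to 661 and from 318 to 367 CPM in KO saline. Their part in the saline difference of the collagens was not tested.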

How the data were processed

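RNA-seq libraries (33) of mouse quadriceps were used as gene counts that the authors deposited. Per the submitters' processing notes, STAR, HTSeq, limma 3.40.6 and mm10 were named, and no other version was found in the labels. Rows that name no gene stayed out of library sizes: reads in no feature were 24.6% to 33.2% and ambiguous reads 0.188% to 0.3%. The number of columns of per-sample values not used was 0.

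Counts were filtered with filterByExpr, scaled by TMM (factors 0.932 to 1.09) and fitted over all 13955 genes and 8 groups with edgeR 4.0.16 (R 4.3.3) by the robust quasi-likelihood test, with Benjamini-Hochberg adjustment and a threshold of 0.05. Normalised CPM and RPKM used the TMM-scaled totals and merged exon lengths of GENCODE on GRCm38. Fold changes are log2 differences ± SE. The deposited tables of the authors' own comparisons, with log2 fold changes and adjusted p-values, were compared over the members only. DESeq2 1.42.0, limma 3.58.1 (voom), other scalings and filters, and leaving out each library were tried as alternatives, and scripts were tested on simulated data. No libraries had identical counts (0 pairs).

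The members, classes and gene lists were chosen with earlier results of these data known. Members named with library values were the 3 with the highest RPKM of each class and the 4 with the smallest p per direction or interaction. Col1a1's partner chains and other members outside this rule were named after their values were seen. RefSeq supplied the promoter windows.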

Additional observations from a re-analysis of the deposited data

Results flagged for a closer look

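Among 110 group values of 22 collagen genes, 11 held a library far from the others, and chance alone flags about 1 in 20 groups. In KO dexamethasone 3 h replicate 4, one of the low libraries, Col6a2 was at 81.7 CPM (others 116 to 130), Col6a3 at 88.4 CPM (130 to 146) and Col5a2 at 59 CPM (90.4 to 94.1). In WT dexamethasone 3 h replicate 5, another of them, Col6a1 was at 68.9 CPM (120 to 137). In WT saline 24 h replicate 3 Col14a1 was at 25.7 CPM (16.8 to 17.8) and Col16a1 at 10.3 CPM (6.83 to 7.32). Col1a2 was at 179 CPM in KO dexamethasone 24 h replicate 5 (97.6 to 117), and Col27a1 at 5.32 CPM in KO dexamethasone 3 h replicate 1 (2.78 to 3.4). In the WT dexamethasone 24 h group Col6a5 was at 0.94 CPM in replicate 4 (0.358 to 0.509), Col9a1 at 1.11 CPM in replicate 1 (0.349 to 0.546) and Col19a1 at 2.12 CPM in replicate 5 (3.96 to 4.55).

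The drug difference itself differed between 24 h and 3 h for 6 of these 22 genes (edgeR interaction test). That share is close to the 26.2% of all genes tested. Col14a1, Col16a1, Col3a1 and Col5a2 were named for their small p in this same test, so their calls here are no further support. The log2 difference at 24 h minus that at 3 h was -1.20 for Col14a1, -0.85 for Col16a1, -1.37 for Col3a1, -0.66 for Col5a2, -1.12 for Col6a5 and -0.59 for Col6a2.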

How the results depend on the processing

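Of 704 values of named collagen genes under the alternatives, 658 kept their side of the threshold, 12 lost the call and 34 gained one. Of the values called in the main fit, 0 changed direction. Direction was not compared for values not called there, and these may have changed sign. Counts of called members moved by over 1.5 times as follows. In WT at 3 h (1 called) they were 2 with library totals, with the library-name series as a term or with a CPM floor of 0.1, 3 with voom, 0 with only the groups compared, 6 with saline of both times as control and 5 without the 3 low libraries, which were picked after seeing the data, for low collagens, and give no test. In KO at 3 h (1) they were 4 with voom, 3 with only the groups compared or with saline of both times, and 2 without the low libraries. Saline of both times gave 16 in WT and 22 in KO at 24 h (10 each). Without the ML1716 libraries the saline WT count was 1 (4) and the genotype count 5 (9). ML1716 is a series of library names whose meaning the labels do not give. It holds KO dexamethasone 3 h replicate 5, KO dexamethasone 24 h replicates 4 and 5, WT saline 24 h replicate 4 and WT dexamethasone 24 h replicate 5. KO saline and saline at 3 h have no such library, so the series is partly mixed with drug and time. The change of the drug difference with time (7) gave 11 with voom and 13 without the low libraries. Leaving out each library in turn gave 0 to 4 (WT 3 h), 0 to 2 (KO 3 h), 3 to 12 (WT 24 h), 4 to 11 (KO 24 h), 2 to 6 (mean 3 h), 11 to 20 (mean 24 h), 1 to 6 (saline WT), 4 to 10 (saline mean), 5 to 11 (drug by time), 4 to 9 (genotype) and 0 to 1 (genotype by drug, 24 h). The cause was not tested. With library totals the share of higher calls over all genes went from 50.8% to 36.7% at 3 h, from 42.9% to 60.5% in saline with time and from 51.9% to 64.7% between 3 h and 24 h of dexamethasone. The labels give no replicate numbers, and those used here count the libraries of a group in the order listed. The labels name no pairs of libraries between groups, so no paired analysis was run.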

Other observations

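The authors' deposited tables gave different values from the fit above for the collagen genes. Over the 36 members the authors' log2 fold changes lay a median of 0.172 (WT 3 h), 0.18 (KO 3 h), 0.219 (WT 24 h) and 0.199 (KO 24 h) from the values against saline of the same time. From values refitted against the saline libraries of both times they lay a median of 0.03, 0.02, 0.02 and 0.02, and at most 0.13. In the authors' deposited table Col4a1 had 1.00 (WT) and 0.82 (KO) at 3 h, then -0.02 and 0.07 at 24 h, and Col3a1 at -1.61 and -1.43 at 24 h. The authors' deposited tables called 16 members lower (WT) or 22 lower (KO) at 24 h, and 0 higher in either genotype.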
